A study of Mus musculus with 6 samples.

Results

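Macrophages and neutrophils are phagocytes of the innate immune system, and 38 genes that mark them or that they share with other leukocytes were followed here in mouse back epidermis. The 38 were taken by gene symbol from 54532 genes, all 38 symbols were found once, and they were split by role into 15 macrophage and monocyte markers, 9 neutrophil markers and 14 shared leukocyte and myeloid genes. The Spry1_KO group was back epidermis of Spry1 flox/flox mice with K14-Cre-ERT2 and the Control group was back epidermis of Spry1 flox/flox mice without Cre, with 3 RNA-seq samples each. Tamoxifen was given to both groups (by gavage, 0.1 mg for each g of mouse, on 4 occasions weekly over 4 weeks). No age was used here. The keratin 14 promoter drives the tamoxifen-inducible Cre in basal keratinocytes, so the floxed gene is targeted in those cells and not in leukocytes. There were no Cre mice with intact Spry1, so what Cre does and what the loss of Spry1 does cannot be told apart. Whether each sample is its own animal is not stated in the labels, and p-values here measure only how far the samples spread, some of which may be technical.

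Tissue macrophages take up dead cells and microbes, bind complement-marked particles and depend on signalling through the Csf1 receptor. They are replenished in part by monocytes that leave the blood through the chemokine receptor Ccr2. Neutrophils are short-lived granulocytes that need the Csf3 receptor to form and follow gradients of Cxcl chemokines through Cxcr2. Normal mouse epidermis holds few of either cell. Its resident myeloid cell is the Langerhans cell, which expresses several genes used as macrophage markers, among them Csf1r, Adgre1, Itgax and the adapters Tyrobp and Fcer1g, and which in skin depends on the Csf1 receptor ligand Il34.

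The promoters of markers that the results turn on are shown first, as the 250 bases before the RefSeq transcription start in GRCm38.p6, 5′ to 3′ on the strand of the gene. C1qb and C1qc are neighbours whose levels moved together, Cxcr2 was the neutrophil marker with the highest level, and Fcer1g is an adapter gene that fell. Capitals mark matches to GAGGAA, the core bound by the myeloid factor PU.1 (Spi1), searched on both strands, so that TTCCTC is the same motif on the other strand. Of the 38 members, 31 had a promoter in the table, and 21 of these 31 (67.7%) held the motif in the 250 bases, against 25.9% of all 27025 genes in the table. The motif was held by 9 of 12 members that rose, 1 of 3 that fell, 2 of 4 that did not pass and 9 of 12 below the filter on low values described later. A match is only a run of letters, and binding was not measured.
C1qb (chr4:136886201-136886450, minus strand): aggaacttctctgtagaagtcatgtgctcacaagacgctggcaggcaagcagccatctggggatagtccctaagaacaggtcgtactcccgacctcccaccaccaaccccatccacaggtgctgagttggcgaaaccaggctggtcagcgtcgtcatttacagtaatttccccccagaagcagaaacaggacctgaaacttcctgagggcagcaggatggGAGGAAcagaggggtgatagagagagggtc
C1qc (chr4:136892915-136893164, minus strand): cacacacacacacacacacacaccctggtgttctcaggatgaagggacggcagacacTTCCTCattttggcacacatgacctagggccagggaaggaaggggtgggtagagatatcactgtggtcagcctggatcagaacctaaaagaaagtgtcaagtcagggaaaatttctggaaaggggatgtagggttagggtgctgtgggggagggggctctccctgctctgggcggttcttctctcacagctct
Cxcr2 (chr1:74153744-74153993, plus strand): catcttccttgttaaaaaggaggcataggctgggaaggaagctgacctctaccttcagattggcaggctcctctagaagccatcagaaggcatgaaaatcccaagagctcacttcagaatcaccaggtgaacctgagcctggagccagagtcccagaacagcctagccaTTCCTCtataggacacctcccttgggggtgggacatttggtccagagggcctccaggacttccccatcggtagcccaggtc
Fcer1g (chr1:171234350-171234599, minus strand): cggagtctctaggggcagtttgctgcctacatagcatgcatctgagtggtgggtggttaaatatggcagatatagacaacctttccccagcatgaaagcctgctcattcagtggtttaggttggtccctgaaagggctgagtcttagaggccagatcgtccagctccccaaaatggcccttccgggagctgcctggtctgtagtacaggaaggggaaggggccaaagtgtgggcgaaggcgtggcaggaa
C1qb, C1qc and Cxcr2 each held 1 match, 30, 193 and 81 bases before the start, and Fcer1g held none.

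The labels were checked on the deleted gene. Spry1 was at 1.06 to 1.49 FPKM in the Spry1_KO samples, against 25.75 to 34.4 FPKM in the Control samples. FPKM, the unit of the deposited values, counts fragments per length of gene and per depth of sequencing, so levels of different genes can be set side by side. The keratinocyte gene Krt14 was high in all 6 samples but differed between the groups. It read 10070, 13080 and 10040 FPKM in the Spry1_KO samples, against 2170, 3315 and 2631 FPKM in the Control samples. Reads recovered from the FPKM values came to between 18383323 and 21024716 per sample. The Y-linked gene Eif2s3y had 1390 reads in Spry1_KO replicate 2, 17 and 3 reads in Spry1_KO replicates 1 and 3 and 0 in each Control sample, so the groups are not matched on Y-linked expression. That same sample was the lowest of the 3 Spry1_KO samples for 34 of the 38 members, which included all 14 that rose and all 5 that fell. Among the members and the other genes named by rule, Ptprc and Col3a1 lost their calls when it was left out.

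More macrophage and neutrophil genes rose than fell in Spry1_KO epidermis, and those that fell were myeloid receptors, an adapter and a pan-leukocyte phosphatase. Of the 38 members, 25 passed a filter of a mean of 1 FPKM over the 6 samples, and of these 14 rose, 5 fell and 6 did not pass the test (limma on log2(FPKM + 1), Benjamini-Hochberg adjusted p under 0.05 over 12629 genes). Among all genes tested, 29.6% were called higher and 24.4% lower in Spry1_KO, 54.0% in either direction, so a call was common. With the same values rescaled to the same sum in every sample (TPM scaling), 2038 genes were called higher and 4506 lower, against 3736 higher and 3079 lower as deposited, and 13 members were higher and 6 lower. The median log2 fold change was 1.13 over the 25 members and 0.03 over all genes tested. Of these 25 members, 8 had a Control mean under 1 FPKM and passed the filter through the Spry1_KO samples, so their calls were favoured by the filter. Counted over all 38 members without a filter, every Spry1_KO sample lay above every Control sample for 25 and below for 5, against 20.6% and 21.5% of the 28340 genes read in any sample. In whole tissue, fewer cells of a type and less RNA per cell cannot be told apart.

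**Figure D1:**
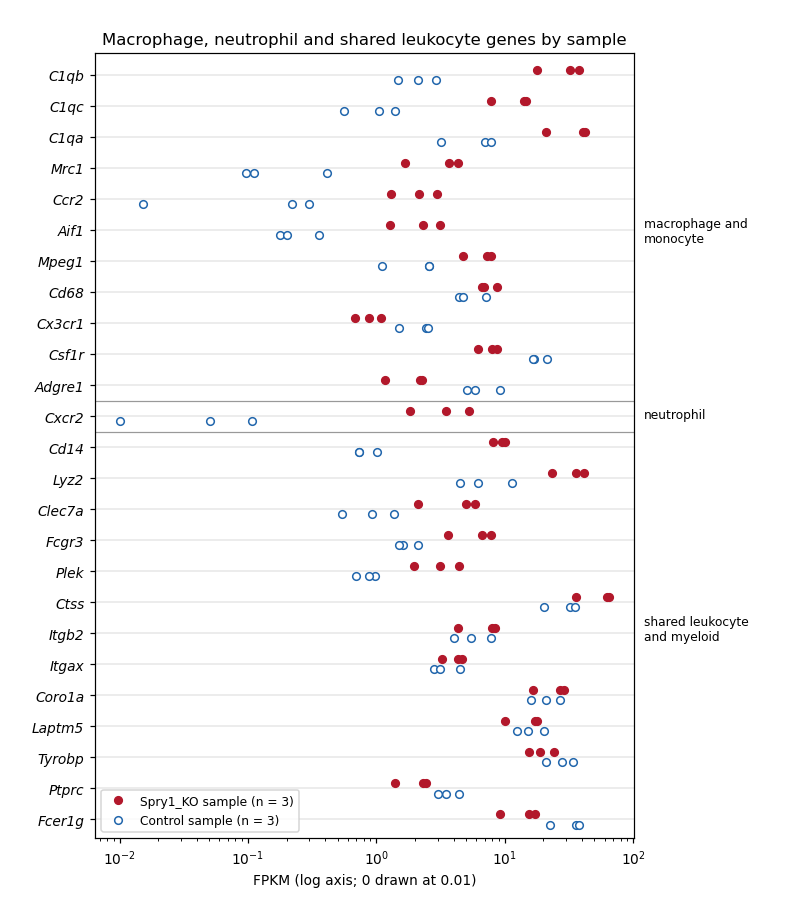
FPKM on a log axis (0 drawn at 0.01) of the 25 members with a mean of at least 1 FPKM, in 3 Spry1_KO samples (filled, upper row of each gene) and 3 Control samples (open, lower row). The groups are apart for C1qb, C1qc, C1qa, Mrc1, Cxcr2 and Cd14 with Spry1_KO higher, apart for Adgre1, Csf1r and Fcer1g with Spry1_KO lower, and overlap for Coro1a, Laptm5 and Itgb2.

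Among the macrophage and monocyte markers, the C1q genes had the highest levels in Spry1_KO epidermis. They encode the chains of C1q, the recognition subunit of the classical complement pathway, which tissue macrophages secrete. The genes lie side by side on the minus strand of chromosome 4 in GRCm38, with C1qb at 136880129 to 136886187, C1qc at 136889804 to 136893065 and C1qa at 136895917 to 136898803, and gaps of 3617 and 2852 bases. C1qb read 32.0, 17.8 and 38.05 FPKM in the Spry1_KO samples, against 2.92, 2.11 and 1.46 FPKM in the Control samples. The lowest Spry1_KO sample was thus far above the highest Control sample, and the log2 fold change was 3.22 ± 0.29 (SE; limma adjusted p of 0.000211).

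C1qc read 14.1, 7.82 and 14.7 FPKM in the Spry1_KO samples, against 1.39, 1.05 and 0.558 FPKM in the Control samples. C1qa read 41.9, 20.9 and 40.6 FPKM in the Spry1_KO samples, against 7.02, 7.78 and 3.21 FPKM in the Control samples. Both genes rose without overlap between the groups, with log2 fold changes of 2.70 ± 0.26 and 2.35 ± 0.36 (SE) and limma adjusted p values of 0.000257 and 0.00172. The chains did not rise in the same proportion. C1qa stood at 1.31, 1.17 and 1.07 times the FPKM of C1qb in the Spry1_KO samples, against 2.40, 3.69 and 2.19 times in the Control samples. C1qc stood at 0.441, 0.438 and 0.386 times C1qb in the Spry1_KO samples, against 0.476, 0.496 and 0.382 times in the Control samples, where the groups overlap.

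Receptors of tissue macrophages and of recruited monocytes rose from low Control levels. Mrc1, the mannose receptor of tissue-resident macrophages, read 3.67, 1.67 and 4.36 FPKM in the Spry1_KO samples, against 0.413, 0.112 and 0.0966 FPKM in the Control samples. Ccr2, the chemokine receptor of inflammatory monocytes, read 2.14, 1.30 and 2.95 FPKM in the Spry1_KO samples, against 0.219, 0.299 and 0.0152 FPKM in the Control samples. Aif1, the actin-binding protein Iba1 of macrophages, read 2.31, 1.28 and 3.13 FPKM in the Spry1_KO samples, against 0.358, 0.178 and 0.201 FPKM in the Control samples. In all 3 genes the groups were apart, with a ratio of mean FPKM of 15.6, 12.0 and 9.11 and limma adjusted p values of 0.00188, 0.00218 and 0.00274. Each had a Control mean under 1 FPKM, and Aif1 and Ccr2 dropped below the filter when Spry1_KO replicate 3 was left out, as did Ccr2 without Spry1_KO replicate 1. The number of macrophage markers called higher was 5 and 6 without these samples, against 7 with all samples.

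Mpeg1, which encodes the pore-forming perforin-2 of phagocytes, read 7.83, 4.69 and 7.22 FPKM in the Spry1_KO samples, against 2.57, 2.59 and 1.10 FPKM in the Control samples, a log2 fold change of 1.31 ± 0.26 (SE; limma adjusted p of 0.00513). Cd68, a lysosomal glycoprotein that marks macrophages in tissue sections, read 8.71, 6.69 and 6.91 FPKM in the Spry1_KO samples, against 4.41, 7.18 and 4.73 FPKM in the Control samples. Its groups overlap and it did not pass (a difference of 0.41 ± 0.18 on the log2 scale, SE; limma adjusted p of 0.0927), though it passed without Control replicate 2 (0.0141).

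The macrophage and monocyte markers that fell were Adgre1, Csf1r and Cx3cr1. Adgre1, the F4/80 antigen, lies on chromosome 17 at 57358691 to 57483527 and read 2.27, 1.17 and 2.18 FPKM in the Spry1_KO samples, against 5.08, 9.25 and 5.89 FPKM in the Control samples. Csf1r, the receptor for Csf1 and Il34 on which macrophages and Langerhans cells depend, read 7.91, 6.19 and 8.77 FPKM in the Spry1_KO samples, against 16.8, 21.2 and 16.5 FPKM in the Control samples. Cx3cr1, the fractalkine receptor, read 0.873, 0.678 and 1.09 FPKM in the Spry1_KO samples, against 2.44, 2.51 and 1.49 FPKM in the Control samples. Each of the 3 was lower in every Spry1_KO sample than in any Control sample, with log2 fold changes of -1.42 ± 0.24, -1.16 ± 0.15 and -0.73 ± 0.17 (SE) and limma adjusted p values of 0.00268, 0.000802 and 0.0111. The annotated spans of Cx3cr1 and Csf1r overlap other expressed genes, such as Csrnp1 and Hmgxb3, and without a stated strand setting reads in the overlaps cannot be told apart. Within a sample, C1qb stood at 14.1, 15.2 and 17.5 times the FPKM of Adgre1 in Spry1_KO replicates 1 to 3, against 0.575, 0.228 and 0.248 times in the Control samples. Spry1_KO replicate 2, low for both genes, lay between the other Spry1_KO samples in this ratio.

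**Figure D2:**
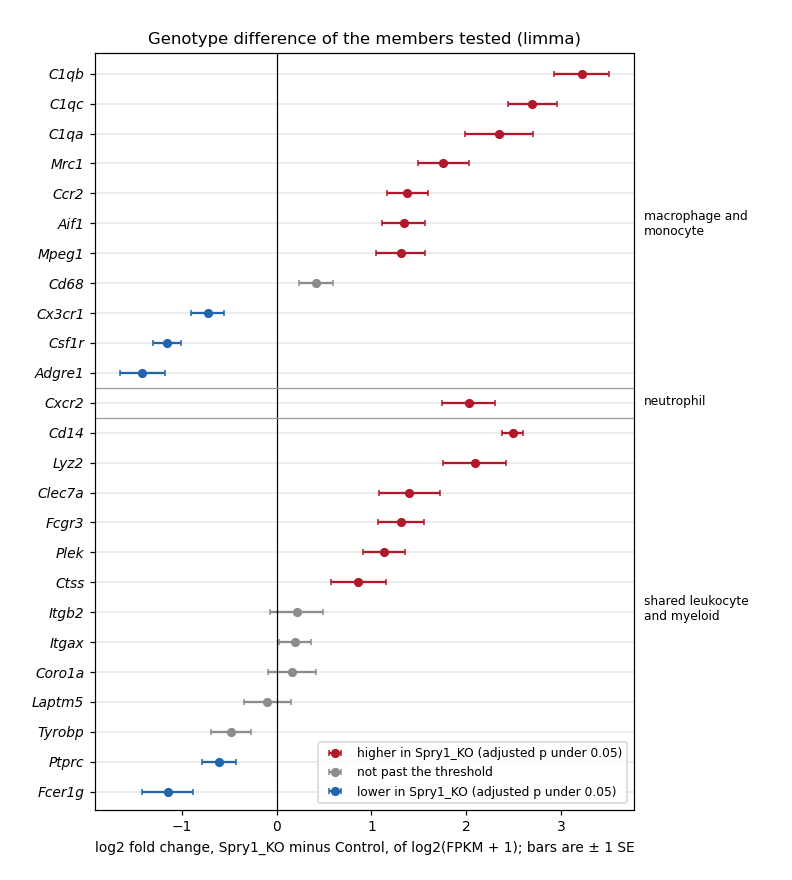
Log2 fold change of Spry1_KO minus Control on the log2(FPKM + 1) scale, with 1 SE on each side (n = 3 samples per group), for the 25 members tested, red where higher, blue where lower and grey where the adjusted p was not under 0.05. Values run from 3.22 for C1qb down to -1.42 for Adgre1, and the shared leukocyte genes spread over both sides of 0.

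The macrophage markers below the filter were all higher in every Spry1_KO sample than in any Control sample. Msr1, the scavenger receptor A, had 106, 55 and 102 recovered reads in the Spry1_KO samples, against 1, 0 and 2 in the Control samples. Trem2, a lipid-sensing receptor that signals through Tyrobp, had 60, 21 and 63 reads in the Spry1_KO samples, against 1, 0 and 3 in the Control samples. Fcgr1, the high-affinity IgG receptor, had 46, 19 and 22 reads in the Spry1_KO samples, against 0, 3 and 2 in the Control samples. The groups did not overlap in any of the 3. The totals gave depth-scaled ratios of 91.1 for Msr1 (95% interval 30.8 to 444.5), 37.4 for Trem2 (14.3 to 139) and 18.1 for Fcgr1 (7.46 to 57.1), exact intervals that cover counting error only.

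Cd163, the haemoglobin scavenger receptor, differed less, with 60, 38 and 111 reads in the Spry1_KO samples, against 28, 18 and 10 in the Control samples. Its ratio was 3.88 (95% interval 2.88 to 5.31). In limma-voom on recovered reads these 4 genes were called higher, with adjusted p values of 0.000334 for Msr1, 0.00248 for Trem2, 0.00268 for Fcgr1 and 0.0224 for Cd163. In that fit 27.0% of 14754 genes were called higher and 26.2% lower. Its filter was a mean of at least 10 reads over the 6 samples. Msr1, Trem2 and Fcgr1 passed it through the Spry1_KO samples, so their calls were favoured by the filter.

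Neutrophil markers were near 0 in Control epidermis and, except for Cxcr2, stayed low in Spry1_KO epidermis. Cxcr2, the receptor for neutrophil-attracting Cxcl chemokines, lies on chromosome 1 at 74153989 to 74161246 and read 3.46, 1.83 and 5.30 FPKM in the Spry1_KO samples, against 0, 0.108 and 0.0505 FPKM in the Control samples. These were 212, 97 and 266 reads in the Spry1_KO samples, against 0, 6 and 3 reads in the Control samples. Every Spry1_KO sample was above every Control sample, with a log2 fold change of 2.03 ± 0.28 (SE; limma adjusted p of 0.00112), a value that the added 1 FPKM holds down, since the ratio of reads was 66.4 (95% interval 34.7 to 146). It alone of the 9 neutrophil markers passed the filter.

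The defining neutrophil surface marker was not seen at a comparable level. Ly6g, the antigen by which mouse neutrophils are sorted, had 1 read in Spry1_KO replicate 1 and 0 in the other 5 samples. Its 0 reads over the Control group allow a mean of up to 0.0569 FPKM, the level of 3 reads over that group. Csf3r, the receptor for the growth factor of neutrophils, had 34, 18 and 24 reads in the Spry1_KO samples, against 1, 9 and 2 in the Control samples, a ratio of 6.58 (95% interval 3.56 to 13.3). Csf3r stood at 0.135, 0.157 and 0.0762 times the FPKM of Cxcr2 in the Spry1_KO samples, against 1.27 and 0.563 times in Control replicates 2 and 3, while in Control replicate 1 Cxcr2 was listed at 0.

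The other neutrophil markers added a few reads per sample. Retnlg, a secreted resistin-like protein of mature neutrophils, had 8, 4 and 24 reads in the Spry1_KO samples, against 0 in each Control sample, at least 12.5-fold higher against a floor of 3 reads over the Control group, with most of its reads in Spry1_KO replicate 3. Clec4e, the receptor Mincle for microbial glycolipids, had 12, 11 and 11 reads in the Spry1_KO samples, against 0 in each Control sample, at least 11.8-fold higher on the same floor. Its neighbour Clec4d, 6524 bases away on chromosome 6, had 7, 7 and 20 reads in the Spry1_KO samples, against 0, 3 and 1 in the Control samples. These C-type lectin genes are also expressed by macrophages.

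Trem1, an amplifier of neutrophil and monocyte responses, had 22, 7 and 18 reads in the Spry1_KO samples, against 0, 1 and 2 in the Control samples, a ratio of 16.3 (95% interval 5.24 to 81.8). The formyl peptide receptors Fpr1 and Fpr2, which sense bacterial peptides, had 4 and 14 reads in total over the Spry1_KO samples and 0 in the Control samples. So 8 of the 9 neutrophil markers were higher in every Spry1_KO sample than in any Control sample, and Ly6g was the exception. Fpr1 was so on only 1, 1 and 2 reads. Of the 28340 genes read in any sample, 20.6% lay above in this way and 21.5% below. With a filter of 0.1 FPKM and a pseudocount of 0.1, 6 neutrophil markers could be tested and 6 were called higher, where 22.2% of 19175 genes were called higher and 21.1% lower. All 6 had a Control mean under 0.1 FPKM and passed this filter through the Spry1_KO samples. Their calls were thus favoured by the filter, and their share cannot be set against that of all genes.

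**Figure D3:**
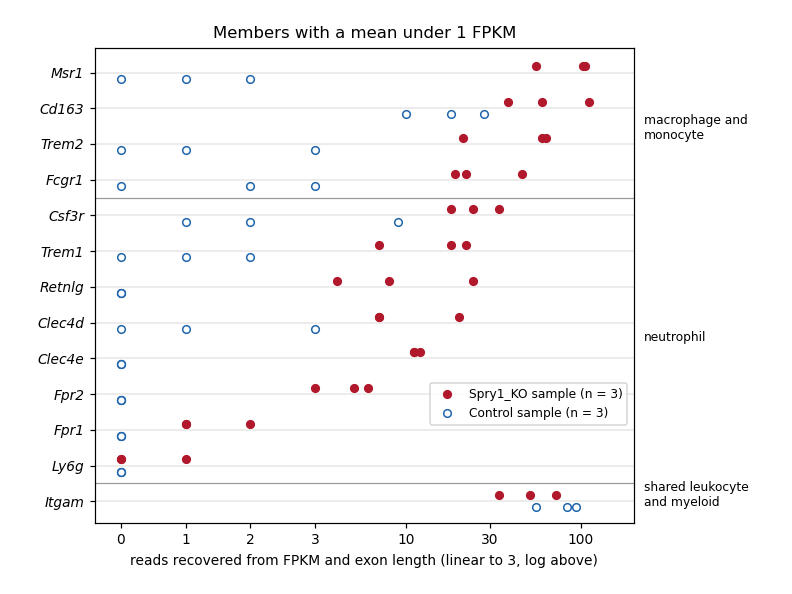
Reads recovered from FPKM and exon length (linear up to 3 reads, log above) for the 13 members with a mean under 1 FPKM, in 3 Spry1_KO samples (filled, upper row) and 3 Control samples (open, lower row). Msr1, Trem2 and Fcgr1 had 19 to 106 reads in the Spry1_KO samples and 0 to 3 in the Control samples, while Ly6g stayed at 0 or 1 read and Itgam overlaps between the groups.

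Genes of neutrophil granules gave a mixed picture beside these markers. Of 14 genes of granules and alarmins, 4 passed the filter, 3 rose and 1 fell, where 29.6% of all genes tested were called higher and 24.4% lower. S100a8, S100a9 and Lcn2, which inflamed keratinocytes also make, averaged 301 ± 155, 385 ± 231.5 and 7.35 ± 0.3005 FPKM in Spry1_KO epidermis, against 2.17 ± 1.23, 3.66 ± 1.95 and 1.09 ± 0.691 FPKM in Control epidermis (SD, n = 3 each). Mmp9, a gelatinase that neutrophils store and that Langerhans cells also make, averaged 0.967 ± 0.372 FPKM in Spry1_KO epidermis and 14.5 ± 3.32 FPKM in Control epidermis (SD, n = 3 each; limma adjusted p of 7.67e-05). The other 10 genes lay below the filter and their values were mixed, and those given here were chosen after their values were seen. Elane was at 0 in every sample, and Ngp and Camp had 2 reads in 1 sample each. Mmp8, the neutrophil collagenase, had 14, 10 and 9 reads in the Spry1_KO samples, against 3, 5 and 0 in the Control samples, and Padi4, which citrullinates histones, had 33, 52 and 29 reads in the Spry1_KO samples, against 12, 22 and 3 in the Control samples. Prtn3, a granule protease, had 2, 0 and 3 reads in the Spry1_KO samples, against 9, 4 and 5 in the Control samples, and Ltf, lactoferrin, had 15, 0 and 18 reads in the Spry1_KO samples, against 0, 0 and 99 in the Control samples.

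The shared leukocyte and myeloid genes split into those that rose, those that did not pass and those that fell. Of 14, 13 passed the filter, 6 rose, 2 fell and 5 did not pass, with a median log2 fold change of 0.21. Over all genes tested, 29.6% were called higher and 24.4% lower. Cd14, Clec7a and Plek, of the shared genes that rose, had a Control mean under 1 FPKM. They passed the filter through the Spry1_KO samples, so their calls were favoured by it. Cd14, the co-receptor for bacterial lipopolysaccharide, read 9.56, 8.14 and 9.98 FPKM in the Spry1_KO samples, against 0.733, 0.731 and 1.012 FPKM in the Control samples. Its replicates were close together and its log2 fold change was 2.49 ± 0.11 (SE; limma adjusted p of 1.82e-05), the lowest p among the members. Lyz2, the lysozyme of macrophages and neutrophils, read 36.0, 23.3 and 41.3 FPKM in the Spry1_KO samples, against 11.4, 6.19 and 4.48 FPKM in the Control samples (limma adjusted p of 0.002). Its close copy Lyz1 had at most 2.35 FPKM in any sample, and the share of reads given to each copy is uncertain.

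Clec7a, Fcgr3 and Plek rose as well. Clec7a, the beta-glucan receptor Dectin-1, read 5.89, 2.10 and 5.02 FPKM in the Spry1_KO samples, against 0.541, 0.933 and 1.36 FPKM in the Control samples. Fcgr3, a low-affinity IgG receptor, read 7.85, 3.62 and 6.69 FPKM in the Spry1_KO samples, against 1.61, 1.51 and 2.13 FPKM in the Control samples. Plek, the protein kinase C substrate pleckstrin, read 3.12, 1.98 and 4.43 FPKM in the Spry1_KO samples, against 0.697, 0.975 and 0.881 FPKM in the Control samples. The groups were apart in each, with log2 fold changes of 1.40, 1.31 and 1.13 and limma adjusted p values of 0.00925, 0.00401 and 0.00481.

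Ctss, the lysosomal protease that trims the MHC class II chaperone, read 62.2, 35.8 and 65.0 FPKM in the Spry1_KO samples, against 32.4, 35.5 and 20.1 FPKM in the Control samples. It had the highest level of the 38 members in Spry1_KO epidermis and the weakest of the 14 rises, a log2 fold change of 0.86 ± 0.29 (SE; limma adjusted p of 0.0404). Spry1_KO replicate 2 and Control replicate 2 differed by little, and the call was lost without Spry1_KO replicate 1 (0.121), Spry1_KO replicate 3 (0.126), Control replicate 1 (0.0642) or Control replicate 3 (0.0882), and under TPM scaling (0.0953).

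The adapters through which these receptors signal did not rise. Fcer1g, the common gamma chain that Fcgr3 and Fcgr1 need for signalling, read 15.5, 9.23 and 17.3 FPKM in the Spry1_KO samples, against 36.0, 37.98 and 22.4 FPKM in the Control samples, and fell by 1.15 ± 0.27 on the log2 scale (SE; limma adjusted p of 0.0114). Fcgr3 and Fcer1g lie 164637 bases apart on chromosome 1. Fcgr3 stood at 0.505, 0.392 and 0.386 times the FPKM of Fcer1g in the Spry1_KO samples, against 0.0448, 0.0398 and 0.0949 times in the Control samples. Tyrobp, the adapter DAP12 used by Trem1 and Trem2, read 18.9, 15.5 and 24.1 FPKM in the Spry1_KO samples, against 28.0, 33.8 and 20.9 FPKM in the Control samples, with overlap and no call (-0.48 on the log2 scale; limma adjusted p of 0.0962). Tyrobp was called lower without Control replicate 3 (0.0269) and under TPM scaling (0.0104).

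Of the genes that most leukocytes carry, Ptprc fell and the others did not pass. Ptprc, the pan-leukocyte phosphatase CD45, read 2.45, 1.40 and 2.30 FPKM in the Spry1_KO samples, against 3.48, 4.41 and 3.03 FPKM in the Control samples. It was lower in every Spry1_KO sample, a log2 fold change of -0.61 ± 0.18 (SE; limma adjusted p of 0.0244), but the call was lost without Spry1_KO replicate 2 (0.0584), Control replicate 1 (0.0574) or Control replicate 2 (0.0754). Coro1a, an actin regulator of leukocytes, read 26.8, 16.5 and 28.8 FPKM in the Spry1_KO samples, against 21.02, 26.8 and 16.1 FPKM in the Control samples. Laptm5, a lysosomal protein of blood cells, read 17.8, 9.98 and 17.1 FPKM in the Spry1_KO samples, against 15.1, 20.2 and 12.4 FPKM in the Control samples. In both genes the groups overlap, with log2 fold changes of 0.16 ± 0.25 and -0.10 ± 0.25 (SE) whose sign changed with the scaling or with 1 sample left out. The annotated span of Coro1a overlaps Bola2 on the other strand, which averaged 15.6 FPKM in Spry1_KO and 10.95 FPKM in Control epidermis. Without a stated strand setting, reads where these 2 genes overlap cannot be told apart.

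The beta-2 integrins overlap between the groups too. Itgb2, the shared beta chain, averaged 6.87 ± 2.23 FPKM in Spry1_KO epidermis and 5.78 ± 1.91 FPKM in Control epidermis, and Itgax, the CD11c chain of dendritic cells and Langerhans cells, averaged 4.07 ± 0.733 FPKM in Spry1_KO epidermis and 3.48 ± 0.858 FPKM in Control epidermis (SD, n = 3 each). Neither passed (limma adjusted p of 0.552 and 0.386), and both differences were slightly negative under TPM scaling. Itgam, the CD11b chain of macrophages and neutrophils, lies 11056 bases from Itgax and below the filter, at 0.713, 0.390 and 0.617 FPKM in the Spry1_KO samples, against 0.906, 1.012 and 0.562 FPKM in the Control samples. It too overlaps, and in limma-voom on recovered reads its adjusted p was 0.211.

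**Figure D4:**
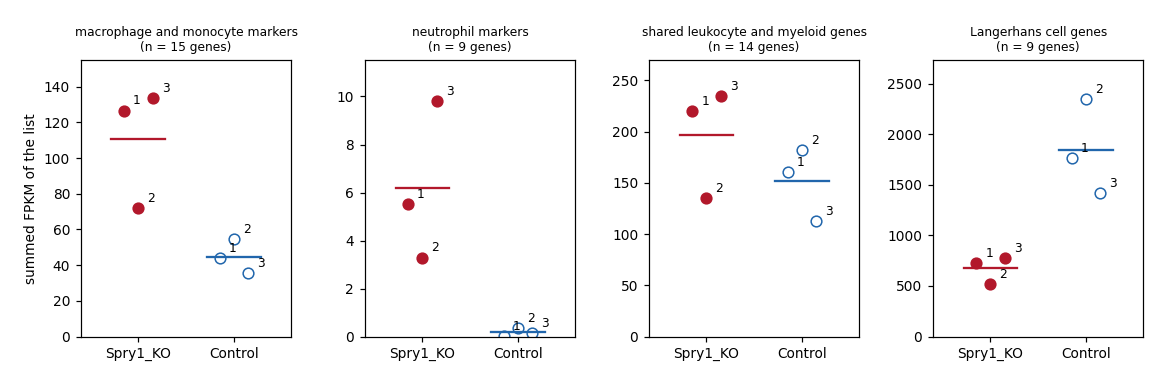
Summed FPKM of each gene list by sample (numbers are replicates, lines are means, axes start at 0), with Spry1_KO filled and Control open. The macrophage list reaches 71.9 to 134 FPKM in Spry1_KO and 35.5 to 54.5 FPKM in Control samples, the shared list overlaps, and the Langerhans cell list is lower in Spry1_KO.

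The macrophage and monocyte list summed to 127, 71.9 and 134 FPKM in the Spry1_KO samples, against 43.9, 54.5 and 35.5 FPKM in the Control samples. The neutrophil list summed to 5.51, 3.29 and 9.80 FPKM in the Spry1_KO samples, against 0.0152, 0.365 and 0.145 FPKM in the Control samples, and Cxcr2 made up most of it in each Spry1_KO sample. The shared list summed to 220, 135.5 and 235 FPKM in the Spry1_KO samples, against 160, 182 and 113 FPKM in the Control samples. Without the 3 C1q genes, an alternative chosen after seeing the data, the macrophage list summed to 38.6, 25.3 and 40.1 FPKM in the Spry1_KO samples, against 32.6, 43.6 and 30.3 FPKM in the Control samples. So the macrophage list was apart between the groups with C1q and overlaps without it, the neutrophil list was apart and the shared list overlaps, with Spry1_KO replicate 2 the lowest Spry1_KO sample in each.

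Genes of Langerhans cells, the other myeloid cell of this tissue, moved the opposite way to C1q. Of 9, 8 fell and 1, Epcam, did not pass, with a median log2 fold change of -1.61, where 24.4% of all genes tested were called lower and 29.6% higher. The list summed to 727, 519 and 779 FPKM in the Spry1_KO samples, against 1768, 2350 and 1420 FPKM in the Control samples. Cd207, which encodes langerin, read 6.87, 8.14 and 12.2 FPKM in the Spry1_KO samples, against 45.5, 63.3 and 33.6 FPKM in the Control samples (limma adjusted p of 0.000609). H2-DMa, of antigen loading, and Ltc4s, an enzyme of leukotriene synthesis, fell by 1.75 and 2.14 on the log2 scale, and Ciita, the master regulator of MHC class II genes, averaged 0.783 ± 0.0798 FPKM in Spry1_KO epidermis and 2.58 ± 0.286 FPKM in Control epidermis (SD, n = 3 each; limma adjusted p of 0.000534). The part of these cells in the falls of Csf1r, Adgre1, Cx3cr1, Fcer1g and Ptprc was not tested.

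Other leukocyte and tissue lists were set beside the members. Among all genes tested, 29.6% were called higher and 24.4% lower. In any list, a gene with a mean under 1 FPKM in 1 group passed the filter through the other group, so its call was favoured. Of 12 T cell genes, 6 fell and 3 rose. Trdv4, Tcrg-V5, Trdc and Cd3e, of the receptor complex of epidermal gamma-delta T cells, fell by 3.13, 4.29, 2.73 and 1.68 on the log2 scale. Trac, Cd4 and Cd8a, of alpha-beta T cells and named after their values were seen, rose by 1.24, 1.07 and 1.06. Coro1a, Laptm5 and Ptprc are expressed by T cells as well.

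Of 9 mast cell genes, 2 passed the filter. Over all 9, every Spry1_KO sample lay above every Control sample for 5 and below for 1, Mrgprb2. Of the 28340 genes read in any sample, 20.6% lay above in this way and 21.5% below. Cpa3, below the filter and named after its values were seen, had 13, 8 and 33 reads in the Spry1_KO samples, against 1, 2 and 0 in the Control samples. Tpsb2 and Mcpt4 overlap between the groups, and Tpsab1 was at 0 in every sample. Hdc, the histamine-forming enzyme of mast cells and basophils, averaged 2.70 ± 0.470 FPKM in Spry1_KO epidermis and 0.0566 ± 0.0285 FPKM in Control epidermis, and Mrgprb2 was listed at 0 in every Spry1_KO sample, against 8.77, 7.06 and 4.37 FPKM in the Control samples. Of 5 eosinophil and basophil genes, only Mcpt8, a basophil protease, passed the filter. It had 109, 57 and 114 reads in the Spry1_KO samples, against 0 in each Control sample, at least 97.0-fold higher on a floor of 3 reads over the Control group (limma adjusted p of 0.000174).

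B cell, dermal dendritic cell and endothelial genes had no member above the filter. The most abundant dermal dendritic cell genes were Flt3 and Batf3 and the most abundant endothelial genes Pecam1 and Cdh5, none of these 4 above 1.84 FPKM in any sample. All 6 skeletal muscle genes tested fell, with Acta1, Pvalb, Atp2a1 and Ckm at -3.11, -2.15, -1.68 and -1.40 on the log2 scale. Of 6 fibroblast genes tested, 4 fell (Col6a1, Dpt, Col1a2 and Col3a1, by 0.66, 1.37, 0.92 and 0.98). Col3a1 did not pass (limma, adjusted) when Spry1_KO replicate 1 (p of 0.0704), Spry1_KO replicate 2 (0.0635), Control replicate 1 (0.0645) or Control replicate 3 (0.0506) was left out, nor did Col1a2 when Spry1_KO replicate 1 was (0.0545). The other 4 red blood cell genes did not pass, and Hba-a1, a haemoglobin chain, fell by 1.77. It did not pass (limma, adjusted) when Spry1_KO replicate 1 (p of 0.0693), Control replicate 1 (0.0779) or Control replicate 2 (0.0787) was left out. The muscle list summed to 3.895, 5.84 and 5.62 FPKM in the Spry1_KO samples, against 66.5, 32.5 and 17.8 FPKM in the Control samples. The fibroblast list summed to 4.56, 5.37 and 9.06 FPKM in the Spry1_KO samples, against 18.4, 12.4 and 20.6 FPKM in the Control samples. Both lists of tissue beneath the epidermis were thus lower in every Spry1_KO sample, in the samples where C1q and Mrc1 were higher, and their part in the members' results was not tested.

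Ligands of the receptors among the members moved both ways. Of 14 genes listed as ligands, 8 passed the filter, 3 rose and 3 fell, with a median log2 fold change of -0.06. Over all genes tested, 29.6% were called higher and 24.4% lower. Of the 3 ligands that rose, 2, Cxcl1 and Ccl8, had a Control mean under 1 FPKM. They passed the filter through the Spry1_KO samples, so their calls were favoured by it. Il34, the keratinocyte ligand of Csf1r, read 14.5, 11.9 and 15.5 FPKM in the Spry1_KO samples, against 79.8, 73.2 and 66.8 FPKM in the Control samples, a log2 fold change of -2.32 ± 0.12 (SE; limma adjusted p of 2.72e-05). Csf1, its other ligand, averaged 4.76 ± 1.49 FPKM in Spry1_KO epidermis and 7.54 ± 0.726 FPKM in Control epidermis (SD, n = 3 each; limma adjusted p of 0.0309). Csf1 and Ccl2 were named after their values were seen.

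Of the ligands of Cxcr2 and Ccr2, Cxcl1 and Ccl2 rose, Ccl7 did not pass and the others lay below the filter. Of these others, all named after their values were seen, Cxcl2, Cxcl3 and Ccl12 were higher in every Spry1_KO sample than in any Control sample. They had 135, 67 and 27 reads over the Spry1_KO samples, against 26, 7 and 0 over the Control samples. Cxcl5 and Ppbp had 5 and 3 reads against 0 and overlap between the groups. The chemokine Ccl8, listed beside the ligands of Ccr2, rose as well, and whether it acts on Ccr2 in the mouse was not tested. Cxcl1, a Cxcr2 ligand, read 10.1, 10.02 and 5.67 FPKM in the Spry1_KO samples, against 0.0878, 0.408 and 0.520 FPKM in the Control samples, a log2 fold change of 2.82 (limma adjusted p of 0.00015). Ccl8, a monocyte chemokine, read 34.9, 7.56 and 48.4 FPKM in the Spry1_KO samples, against 0.322, 0.535 and 0.904 FPKM in the Control samples. Spry1_KO replicate 2 was again the lowest of its group, and the log2 fold change of Ccl8 was 3.98 with it and 4.75 without it (limma adjusted p of 0.00178 and 0.000118). Ccl2, the main Ccr2 ligand, averaged 13.4 ± 2.28 FPKM in Spry1_KO epidermis and 5.52 ± 2.57 FPKM in Control epidermis (SD, n = 3 each; limma adjusted p of 0.0118). Ccl7, another Ccr2 ligand, read 3.85, 1.66 and 3.34 FPKM in the Spry1_KO samples, against 2.33, 3.21 and 1.54 FPKM in the Control samples, which overlap (limma adjusted p of 0.53).

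The ligand of Cx3cr1 fell with its receptor. Cx3cl1, fractalkine, read 2.86, 2.87 and 2.41 FPKM in the Spry1_KO samples, against 7.87, 8.70 and 13.6 FPKM in the Control samples, a log2 fold change of -1.54 (limma adjusted p of 0.000701). The growth factor of neutrophils, Csf3, had 2, 2 and 0 reads in the Spry1_KO samples and 0 in each Control sample.

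**Figure D5:**
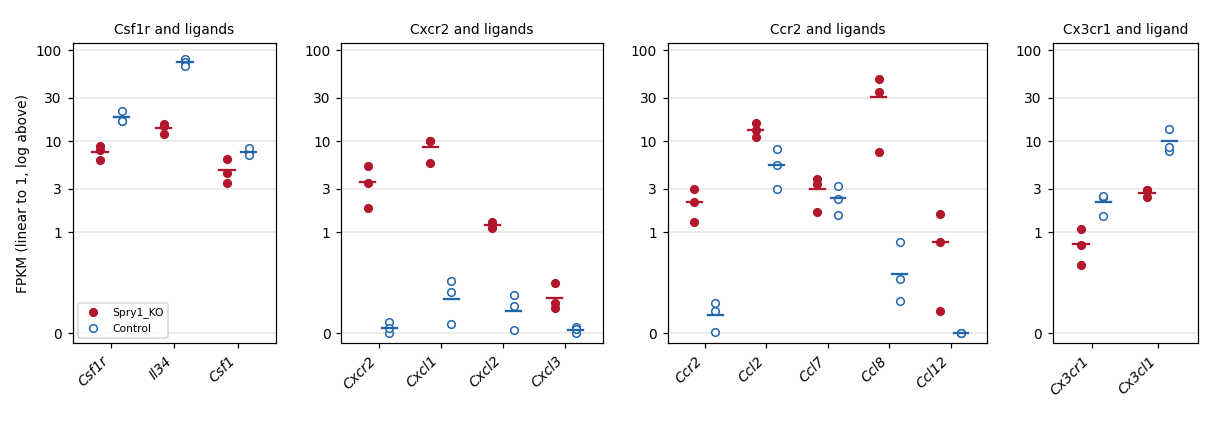
FPKM (linear to 1, log above) of Csf1r, Cxcr2, Ccr2 and Cx3cr1 and of genes listed as their ligands, in 3 Spry1_KO samples (filled, left of each pair) and 3 Control samples (open, right), with lines at the means. Whether Ccl8 acts on Ccr2 in the mouse was not tested. Csf1r and Il34 are lower in Spry1_KO, Cxcr2, Cxcl1, Ccr2, Ccl2 and Ccl8 are higher, and Ccl7 overlaps between the groups.

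Of 13 complement genes beside C1q, 8 passed the filter, 3 rose (C1ra, C1s1 and C4b), 2 fell (Cd55 and Cd59a) and 3 did not pass (C3, Cfd and Serping1), with a median log2 fold change of 0.06. The 3 that rose had a Control mean under 1 FPKM and passed the filter through the Spry1_KO samples, so their calls were favoured by it. Among all genes tested, 29.6% were called higher and 24.4% lower. C1ra and C1s1, the proteases that associate with C1q, averaged 3.30 ± 0.755 and 7.30 ± 2.435 FPKM in Spry1_KO epidermis, against 0.409 ± 0.0559 and 0.855 ± 0.0582 FPKM in Control epidermis (SD, n = 3 each), with limma adjusted p values of 0.000252 and 0.000277. C4b, a complement component cleaved by the C1 complex, read 5.08, 2.71 and 3.65 FPKM in the Spry1_KO samples, against 0.549, 0.182 and 0.505 FPKM in the Control samples (limma adjusted p of 0.00061). Cd55, which protects host cells from complement, averaged 1.97 ± 0.302 FPKM in Spry1_KO epidermis and 30.9 ± 7.41 FPKM in Control epidermis (SD, n = 3 each; limma adjusted p of 2.64e-05). Cd59a, which blocks the membrane attack complex, read 4.78, 6.46 and 3.76 FPKM in the Spry1_KO samples, against 29.8, 21.6 and 18.5 FPKM in the Control samples (limma adjusted p of 0.000416). C3ar1, the C3a receptor of myeloid cells, lay below the filter and was named after its values were seen, with 83, 41 and 84 reads in the Spry1_KO samples, against 3, 0 and 2 in the Control samples.

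Genes listed with Tyrobp and Fcer1g signalling, which include the myeloid factor Spi1 and genes that epithelia also express, fell more often than they rose. Of 18, 16 passed the filter, 4 rose, 7 fell and 5 did not pass, with a median log2 fold change of -0.37. Among all 12629 genes tested, 29.6% were called higher and 24.4% lower, and under TPM scaling 2038 were higher and 4506 lower. Ptpn6, the phosphatase SHP-1 of blood cells and epithelia, Card9, the adapter of Dectin-1 signalling, and Syk, the kinase that binds the activated adapters, fell by 1.62, 1.33 and 0.73 on the log2 scale (limma adjusted p of 9.03e-05, 0.000675 and 0.00388). Cyba, a membrane subunit of the phagocyte oxidase, read 16.5, 11.1 and 17.6 FPKM in the Spry1_KO samples, against 5.49, 5.26 and 3.65 FPKM in the Control samples (limma adjusted p of 0.00112). Its partner subunit Cybb, below the filter and named after its values were seen, had 204, 85 and 115 reads in the Spry1_KO samples, against 8, 7 and 2 in the Control samples. Spi1, whose motif was searched in the promoters and which was also named after its values were seen, averaged 5.03 ± 2.12 FPKM in Spry1_KO epidermis and 8.95 ± 1.27 FPKM in Control epidermis (SD, n = 3 each; limma adjusted p of 0.0393).

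Genes of macrophage subsets outside the 38 moved both ways as well. Of 20, 12 passed the filter, 7 rose, 4 fell and 1 did not pass, with a median log2 fold change of 1.41. Over all genes tested, 29.6% were called higher and 24.4% lower. Of the 7 in this list that rose, 5 had a Control mean under 1 FPKM, Chil3 and Stab1 among them. These passed the filter through the Spry1_KO samples, so their calls were favoured by it. Gpnmb, a glycoprotein of phagocytes that melanocytes also make, averaged 13.0 ± 1.44 FPKM in Spry1_KO epidermis and 1.46 ± 0.194 FPKM in Control epidermis (SD, n = 3 each; limma adjusted p of 1.64e-05). Stab1, a scavenger receptor of macrophages and endothelium, read 5.62, 5.87 and 4.81 FPKM in the Spry1_KO samples, against 0.240, 0.160 and 0.0748 FPKM in the Control samples (limma adjusted p of 2.28e-05). In both genes Spry1_KO replicate 2 lay close to the other Spry1_KO samples, unlike in C1q.

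Chil3, a chitinase-like protein of alternatively activated macrophages, read 13.3, 6.57 and 11.8 FPKM in the Spry1_KO samples, against 0.0336, 0.201 and 0 FPKM in the Control samples (limma adjusted p of 8.94e-05). Its close copy Chil4 had 335.6, 36.1 and 880 FPKM in the Spry1_KO samples, against 0 in each Control sample, so the share of reads given to each copy is uncertain. Ms4a7, a membrane protein of resident macrophages, below the filter and named after its values were seen, had 96, 47 and 112 reads in the Spry1_KO samples, against 1, 0 and 2 in the Control samples. The rest of this list below the filter was mixed. Folr2, Lyve1 and Siglec1 had 10, 63 and 7 reads over the Spry1_KO samples, against 11, 62 and 8 over the Control samples, and overlap between the groups. Vsig4 and Marco had at most 1 read in either group. Timd4 and Nos2 were higher in every Spry1_KO sample, with 22 and 24 reads in total, against 9 and 3. Maf, Apoe, Lgals3 and Arg1, which other cells of the epidermis also express and which were named after their values were seen, fell by 0.73, 0.38, 0.43 and 0.86 on the log2 scale. The calls of Apoe and Lgals3 were close to the threshold (limma adjusted p of 0.0456 and 0.0489) and were lost with a filter and pseudocount of 0.1 FPKM (0.0874 and 0.0643).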

How the data were processed

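The deposited table holds FPKM values of 54532 genes in the 6 samples. Per the submitters' processing notes, the tools were HISAT2 2.0.5 and featureCounts 1.5.0-p3 and the build was GRCm38. Which annotation and strand setting were used and how FPKM were computed is not given here. Per the labels' protocols, Trizol RNA (0.4 ug a library) was used.

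For positions and exon lengths, 54495 gene IDs were found in GENCODE M21, which is on GRCm38. FPKM times exon length gave whole reads (tolerance 0.1) for 97.0% to 97.3% of values. Csf1r, Mpeg1 and Cd14 were not whole in all samples, so reads are not given for them. Promoters came from RefSeq (GRCm38.p6). Groups came from the sample titles. Genotype alone was tested, two-sided, by limma-trend (limma 3.58.1, R 4.3.3) on log2(FPKM + 1). Genes entered with a mean of 1 FPKM or more, and calls were made at a Benjamini-Hochberg adjusted p under 0.05. It was tested on simulated data. On this scale fold changes of low genes are understated. Exact intervals are Clopper-Pearson at 95%.

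The members and lists were chosen with earlier results of these data known. All members were followed, and of each other list the up to 4 called genes of lowest p, or with none called the 2 most abundant, were named unless stated. A few genes that this rule names are not reported here. Alternatives were other pseudocounts, filters, scalings, limma-voom on recovered reads (a mean of at least 10 reads), array weights, a replicate block and samples left out. Replicate pairs differed beyond sampling noise, with a chi-square per gene of 10.8 to 60.4. Figures used matplotlib 3.10.9 under Python 3.11.15.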

Additional observations from a re-analysis of the deposited data

How the results depend on the processing

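Of the 38 members, between 11 and 15 were called higher and between 4 and 6 lower with 1 sample left out. For macrophage and monocyte markers these ranges were 5 to 8 higher and 3 to 3 lower, for neutrophil markers 1 to 1 and 0 to 0, and for shared genes 5 to 6 and 1 to 3. Over all genes they were 3112 to 3977 higher and 2424 to 3313 lower. The count of 5 macrophage markers, without Spry1_KO replicate 3, came with Aif1 and Ccr2 below the filter, and that of 6, without Spry1_KO replicate 1, with Ccr2 below it. With both Spry1_KO replicate 2 and Control replicate 3 left out, 14 members were higher and 6 lower. A filter and pseudocount of 0.1 FPKM gave 23 members higher, among them 11 macrophage and 6 neutrophil markers. The 6 neutrophil markers, and Msr1, Trem2 and Fcgr1, passed this filter through the Spry1_KO samples. With no filter 20 members and 5 neutrophil markers were higher. Limma-voom on recovered reads, which leaves out Csf1r, Mpeg1 and Cd14, tested 28 members and called 17 higher and 4 lower. Of the 9 neutrophil markers it could test only 2, Cxcr2 and Csf3r, and called both higher. Both passed its filter on reads through the Spry1_KO samples. Only 1 shared gene was lower with no filter, in limma-voom 2 were, and the replicate block gave 1 (Ptprc was lost, adjusted p of 0.0673, and Ctss, 0.0818). Replicate numbers do not pair the samples: same-numbered samples had correlations of deviations of -0.098, -0.111 and -0.125.

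Under TPM scaling the median over all genes shifted by -0.24, and 2038 genes were higher and 4506 lower, against 3736 and 3079 as deposited, and under scaling to recovered reads it shifted by -0.11, with 2876 higher and 3736 lower. Among members, TPM scaling gave 13 higher and 6 lower. Signs changed for members that did not pass. Under TPM scaling Itgax, Itgb2 and Coro1a had log2 fold changes of -0.03, -0.03 and -0.11. Coro1a had -0.02 with array weights and between -0.02 (without Control replicate 3) and 0.40 with 1 sample left out. Laptm5 had between -0.25 and 0.15 with 1 sample left out, with 0.15 without Spry1_KO replicate 2 and 0.08 without Control replicate 2, and 0.00 with both samples above left out. The cause of these changes was not tested. Limma-voom, which adds no pseudocount of 1 FPKM, gave larger values for low genes, such as 6.34 for Cxcr2, 4.23 for Ccr2 and 4.14 for Mrc1. Of the neutrophil markers, 5 of 9 were at 0 reads in the Control samples, which gives only a limit to their level there.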
